A study of Homo sapiens with 32 samples.

Results

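Chromatin loops that joined the starts of 2 protein-coding genes were examined in 4 lists of loops called from in situ Hi-C data of HEK293 cells, a human embryonic kidney cell line. A loop was taken as a member when each of its 5 kb anchors held the 5′ end of at least 1 protein-coding gene in the GENCODE annotation of hg38. These gene-start loops numbered 1590 of the 45629 loops in the 4 lists. The groups were HEK293 wild-type cells and HEK293 cells of the eGFP-YAP genotype, each as untreated controls (0 h) and after 1 h in 200 mM sorbitol, which raises the osmolarity of the medium. The series design states that eGFP-YAP cells were serum-starved for 1 h before sorbitol. It gives no starvation step for the wild-type cells, and the labels do not say how eGFP-YAP was introduced or whether the line is 1 clone. Each list is a single set of calls for its condition, which leaves no replicate spread for a test between conditions. The number of reads behind each list is not given in the sources used here, and the number of loops called depends on it. No RNA was measured in these libraries, so the cell type could not be checked against its markers. Intervals in brackets are 95% intervals for counting error over loops, and loops are not replicates of a condition.

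In situ Hi-C ligates DNA ends that lie close together in the nucleus, and a loop is called where 2 anchors meet more often than their surroundings. Many loops of unstressed cells are held by cohesin stopped at CTCF sites whose motifs point towards each other. Promoters also meet other promoters, and such contacts are found mostly between active genes with CpG-rich starts. YAP is the co-activator at the end of the Hippo pathway, which acts on genes through the TEAD factors.

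Promoter sequences of genes at the loops described below are shown first, because 2 gene starts are what these loops have in common. They are the 250 bases before the RefSeq start in GRCh38.p14, written 5′ to 3′ on the strand of the gene. Capitals mark GC boxes (GGGCGG), ETS sites (CCGGAAG), boxes of the NF-Y type (CCAAT) and YY1 sites (AAGATGGC) on either strand. The pair joined by the same 1075 kb loop in both sorbitol lists, GTPBP6 and SLC25A6, comes first, both on the minus strand at chrX:318797-319046 and chrX:1392114-1392363.
GTPBP6: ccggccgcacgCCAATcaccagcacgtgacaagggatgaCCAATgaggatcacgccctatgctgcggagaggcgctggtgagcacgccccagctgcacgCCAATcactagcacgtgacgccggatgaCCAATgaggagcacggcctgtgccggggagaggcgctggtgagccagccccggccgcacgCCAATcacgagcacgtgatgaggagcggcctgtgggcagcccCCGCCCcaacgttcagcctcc
SLC25A6: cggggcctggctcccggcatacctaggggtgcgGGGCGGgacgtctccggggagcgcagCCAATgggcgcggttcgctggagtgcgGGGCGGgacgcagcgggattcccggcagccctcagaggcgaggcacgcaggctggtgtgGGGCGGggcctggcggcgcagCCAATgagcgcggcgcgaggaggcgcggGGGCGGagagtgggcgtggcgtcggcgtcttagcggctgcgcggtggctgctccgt
The next 2 genes also start at loops of both sorbitol lists and neither control list, on the plus strand at chr16:4958080-4958329 and chr3:14651512-14651761.
SEC14L5: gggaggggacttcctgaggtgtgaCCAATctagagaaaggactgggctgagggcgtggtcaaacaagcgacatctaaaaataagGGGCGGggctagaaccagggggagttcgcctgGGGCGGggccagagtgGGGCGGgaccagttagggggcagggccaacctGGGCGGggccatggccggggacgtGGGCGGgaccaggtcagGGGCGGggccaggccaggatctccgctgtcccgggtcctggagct
CCDC174: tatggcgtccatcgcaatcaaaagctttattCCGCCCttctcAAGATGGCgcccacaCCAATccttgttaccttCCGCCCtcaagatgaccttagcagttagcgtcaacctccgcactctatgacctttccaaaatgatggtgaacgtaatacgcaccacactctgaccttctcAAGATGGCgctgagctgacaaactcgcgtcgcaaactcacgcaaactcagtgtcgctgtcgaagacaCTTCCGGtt
THAP11 (plus strand, chr16:67842070-67842319) and CDCA4 (minus strand, chr14:105021084-105021333) were among the genes with the most partners after sorbitol, and NR6A1 (minus strand, chr9:124771312-124771561) lies at the one loop that was matched in all 4 lists with gene starts at both anchors in each.
THAP11: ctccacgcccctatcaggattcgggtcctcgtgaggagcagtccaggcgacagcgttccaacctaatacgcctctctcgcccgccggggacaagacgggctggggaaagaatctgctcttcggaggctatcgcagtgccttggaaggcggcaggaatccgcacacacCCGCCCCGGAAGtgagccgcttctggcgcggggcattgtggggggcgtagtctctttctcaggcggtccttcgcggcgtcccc
CDCA4: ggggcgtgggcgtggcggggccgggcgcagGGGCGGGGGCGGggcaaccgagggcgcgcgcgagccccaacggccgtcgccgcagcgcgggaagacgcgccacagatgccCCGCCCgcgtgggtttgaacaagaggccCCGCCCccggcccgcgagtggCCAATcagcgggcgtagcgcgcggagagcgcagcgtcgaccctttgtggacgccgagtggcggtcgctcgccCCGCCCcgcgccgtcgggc
NR6A1: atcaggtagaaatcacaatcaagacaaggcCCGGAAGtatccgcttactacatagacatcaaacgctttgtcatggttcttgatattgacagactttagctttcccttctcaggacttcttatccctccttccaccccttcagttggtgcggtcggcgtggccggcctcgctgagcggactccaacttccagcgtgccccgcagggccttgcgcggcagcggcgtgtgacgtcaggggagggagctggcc
The SEC14L5 window held 6 GC boxes and 1 CCAAT box, and the CDCA4 window held 5 GC boxes and 1 CCAAT box. The GTPBP6 window held 5 CCAAT boxes and 1 GC box, and the SLC25A6 window 2 and 4. The CCDC174 window held 2 YY1 sites and 1 ETS site beside 2 GC boxes and 1 CCAAT box. The THAP11 window held 1 GC box and 1 ETS site, and the NR6A1 window 1 ETS site and no GC box. A match describes the letters of the window and not the binding of a factor.

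Loops joining 2 gene starts were more numerous after sorbitol in both lines, although each sorbitol list held fewer loops in all. They made up 95 of 15180 loops (0.626%) in wild-type control cells and 519 of 5906 (8.79%) in wild-type sorbitol cells. In eGFP-YAP cells they made up 233 of 18966 loops (1.23%) in the control list and 743 of 5577 (13.3%) after sorbitol. The intervals of the 4 shares were 0.512% to 0.764%, 8.09% to 9.54%, 1.08% to 1.40% and 12.5% to 14.2% in the same order, and none overlapped. The number of gene-start loops was 5.46 times the control number in wild-type cells (4.38 to 6.87, exact) and 3.19 times in eGFP-YAP cells (2.75 to 3.71).

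**Figure D1:**
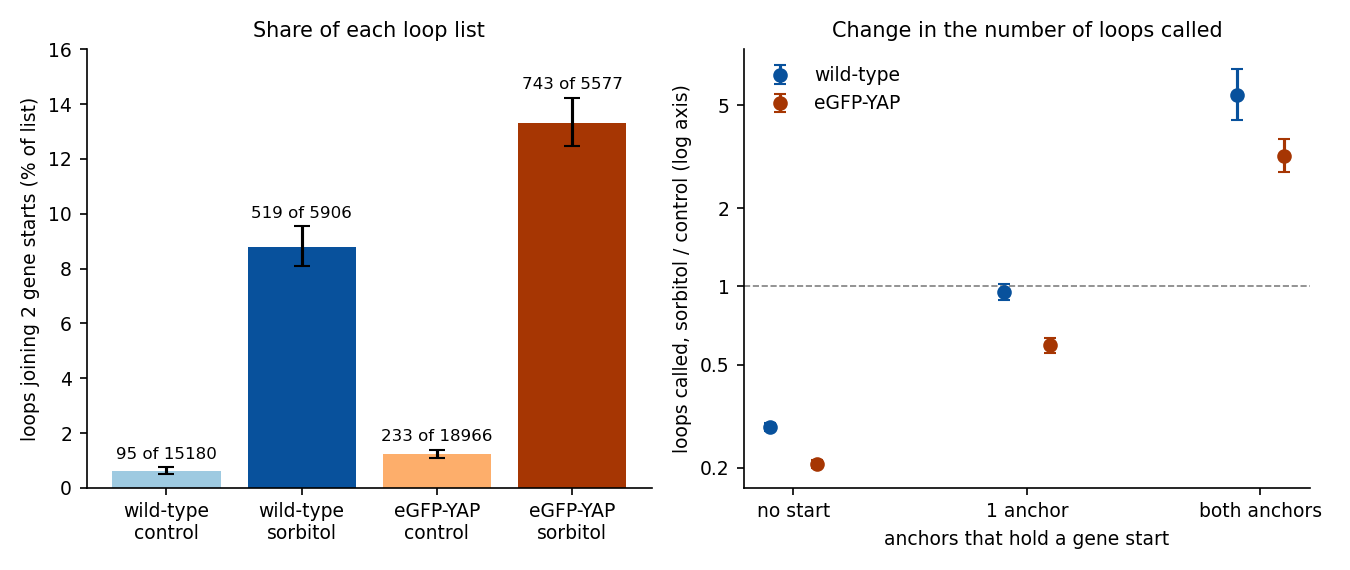
Left, bars give the percentage of each loop list that joined 2 gene starts, with 95% Wilson intervals and the counts above them. Right, points give the number of loops called after sorbitol over the number in control cells on a log axis, with exact 95% intervals, by how many anchors hold a gene start. The ratio for loops with no gene start lies at 0.289 and 0.208, and that for both anchors at 5.46 and 3.19.

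The number of loops moved in opposite directions by anchor class. Loops with no gene start at either anchor fell from 13531 to 3904 in wild-type cells and from 16279 to 3380 in eGFP-YAP cells, ratios of 0.289 and 0.208. Loops with a start at 1 anchor numbered 1554 and 1483 in wild-type cells, a ratio of 0.954 whose interval of 0.888 to 1.03 holds no change, and 2454 and 1454 in eGFP-YAP cells, a ratio of 0.593 (0.555 to 0.632). Gene starts also went together at the 2 ends of a loop. In wild-type sorbitol cells 42.3% of the loops with a start at the left anchor had one at the right anchor, against 16.6% of those without a start at the left. The same pair of values was 50.6% and 17.7% in eGFP-YAP sorbitol cells, 11.1% and 5.55% in wild-type control cells, and 16.6% and 7.30% in eGFP-YAP control cells.

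The shares depended on the exact place of the anchors. With both anchors moved by 100 kb, 0.610% of the wild-type sorbitol loops and 0.502% of the eGFP-YAP sorbitol loops joined 2 gene starts, against 0.290% and 0.337% of the control loops. The 5 kb anchor is a narrow window for a start. Of the sorbitol loops with a start at 1 anchor, 52.5% in wild-type and 49.3% in eGFP-YAP cells had a start in a 5 kb bin next to the other anchor, against 16.9% and 21.6% of the control loops. Those loops lie just outside the rule.

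The genes at the anchors were shared in part between lists. The anchors held the starts of 216 genes in the wild-type control list and 1174 in the wild-type sorbitol list, and 538 and 1530 in the eGFP-YAP lists, of 19962 protein-coding genes. The distinct gene pairs numbered 142, 830, 346 and 1197 in the same order, and 2292 pairs were found in at least 1 list. The 2 sorbitol lists shared 145 gene pairs, 17.5% of the wild-type and 12.1% of the eGFP-YAP pairs. The 2 control lists shared 13 pairs, 9.15% and 3.76%. Within a line, 5 pairs were in both wild-type lists and 43 in both eGFP-YAP lists, and no pair was in all 4 lists. Of the 145 pairs shared after sorbitol, 136 were in neither control list, and of the 13 control pairs 12 were in neither sorbitol list. Absence from the other condition was common for loops of any kind. Over all loops, 79.9% of the wild-type and 68.4% of the eGFP-YAP sorbitol loops had no loop within 10 kb in the control list of their line. Genes were shared more widely than pairs: 412 genes started at gene-start loops of both sorbitol lists, 35.1% of the wild-type and 26.9% of the eGFP-YAP genes, and 39 did so in both control lists.

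Few gene-start loops of one condition were called in the other condition of the same line when both anchors had to lie within 10 kb. In wild-type sorbitol cells 46 of 519 (8.86%) had a loop in the control list, where the share over all loops of that list was 20.1%. In eGFP-YAP sorbitol cells 121 of 743 (16.3%) had one, against 31.6% over all loops. The control lists ran the other way. There 20 of 95 wild-type loops (21.1%, against 7.81% over all loops) and 62 of 233 eGFP-YAP loops (26.6%, against 9.28%) had a loop after sorbitol. The share called again fell with each anchor at a gene start in the sorbitol lists, from 23.9% to 14% to 8.86% in wild-type cells and from 39.4% to 21.2% to 16.3% in eGFP-YAP cells. In the control lists it rose, from 7.24% to 12.0% to 21.1% and from 8.41% to 13.4% to 26.6%. With 0, 1 and 2 gene starts, 933, 207 and 46 wild-type sorbitol loops and 980, 186 and 20 wild-type control loops were matched. In eGFP-YAP cells the matched loops numbered 1332, 308 and 121 after sorbitol and 1369, 329 and 62 in the control list. The opposite trends thus largely follow the differing numbers of loops per anchor class and are no separate result. These shares also depend on the length of the list searched, since each control list was longer than its sorbitol list.

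Gene-start loops were called in the same condition of the other line about as often after sorbitol in both directions. They were found in 199 of 519 wild-type sorbitol loops (38.3%, against 24.2% over all loops) and in 287 of 743 eGFP-YAP sorbitol loops (38.6%, against 25.7%). In the control lists, 52 of 95 wild-type loops (54.7%, against 40.2%) and 54 of 233 eGFP-YAP loops (23.2%, against 32.2%) were found in the other line.

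**Figure D2:**
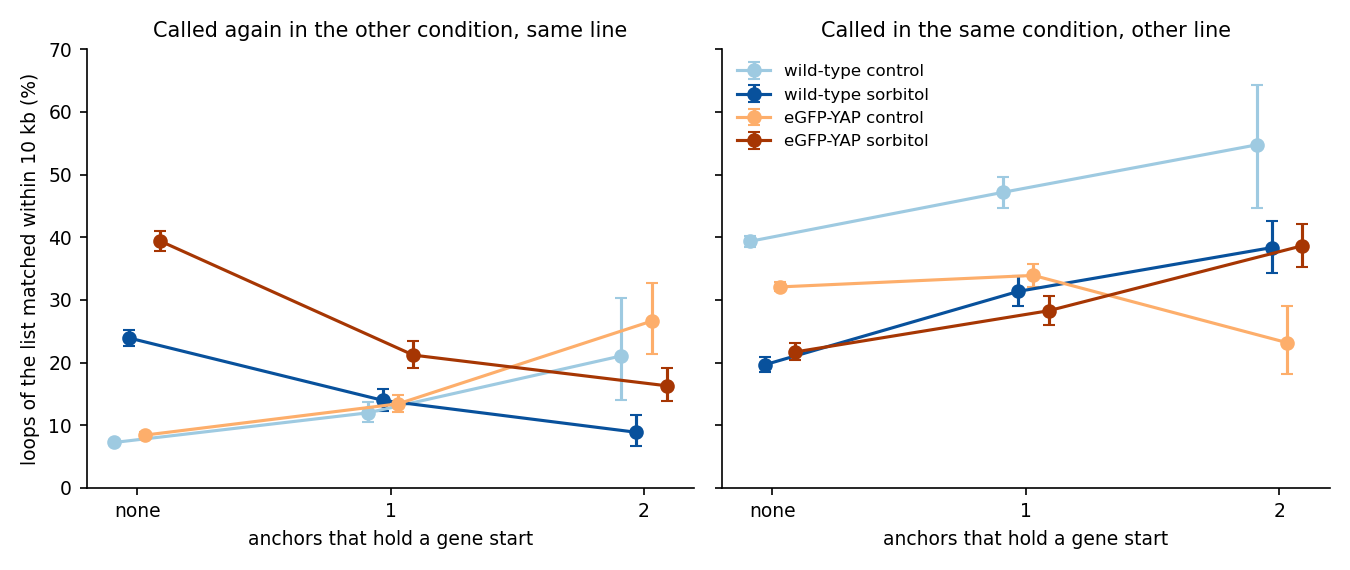
Points give the percentage of loops with a match within 10 kb at both anchors, by how many anchors hold a gene start, with 95% Wilson intervals. On the left the search is in the other condition of the same line, and the sorbitol lists fall from 23.9% to 8.86% and from 39.4% to 16.3% while the control lists rise. On the right the search is in the same condition of the other line.

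Of the 519 wild-type sorbitol gene-start loops, 80 were in both sorbitol lists and neither control list with gene starts at all 4 anchors. They lay on 21 chromosomes, in identical 5 kb bins in 62 cases (77.5%). The shares of all loops that met this definition or lay in identical bins were not counted. The median span of the 80 loops was 140 kb (110 to 190) and their range 35 to 1075 kb. Scores are given as the percentage of loops of the same list with a lower score, because the caller's score has no common scale across lists. Among the 80 loops the median percentile was 62.8 in the wild-type and 54.5 in the eGFP-YAP list. Over all gene-start loops of these lists it was 62.1 (57.7 to 64.3) and 49.9 (46.3 to 52.5).

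The loop with the highest mean percentile joined SEC14L5, of the SEC14-like lipid-binding family, to EEF2KMT, the methyltransferase of translation elongation factor 2, over 140 kb of chromosome 16. Its percentile was 98.1 in the wild-type and 98.6 in the eGFP-YAP sorbitol list, and the 2 genes point towards each other. A loop of 850 kb on chromosome 6 joined a bin with the starts of C6orf120 and WDR27 to the bin with the divergent starts of PSMB1, a core proteasome subunit, and TBP, the TATA-binding protein. It stood at percentiles 99.4 and 97.0. In the eGFP-YAP sorbitol list the PSMB1 and TBP bin also met DLL1, a Notch ligand, over 245 kb (percentile 89.8) and ERMARD with DYNLT2 over 800 kb (88.8). So the same bin held 3 partners in one list and 1 in the other.

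ZNRF3, a ubiquitin ligase that removes Wnt receptors from the cell surface, met KREMEN1, a receptor for the Wnt antagonists of the Dickkopf family, over 190 kb of chromosome 22. Percentiles were 95.7 and 98.3, and both genes are on the plus strand. GTPBP6 met SLC25A6, an ADP/ATP carrier of the inner mitochondrial membrane, over 1075 kb at percentiles 95 and 98.1. Both genes lie in the pseudoautosomal region that the X and Y chromosomes share, and how reads from it were placed is not given in the sources used here. SLC25A6 also met ASMTL over 60 kb in both sorbitol lists (66.4 and 87.6).

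On chromosome 5, TSPAN17, a tetraspanin, met FGFR4, a fibroblast growth factor receptor, over 440 kb at percentiles 94.8 and 97.9. CFAP410, a cilia protein, met SUMO3, a small ubiquitin-like modifier, over 480 kb of chromosome 21 at 87.8 and 99.5. The shared start bin of LSM3, part of the U6 small nuclear ribonucleoprotein, and XPC, a sensor of DNA damage, met CCDC174 over 475 kb of chromosome 3 at 95.2 and 87.5. Each of the loops described here from SEC14L5 with EEF2KMT to this one lay in the same bins in both lines, leaving aside the further partners of PSMB1, TBP and SLC25A6. The same bin of LSM3 and XPC also met CHCHD4, a mitochondrial import factor, over 55 kb in both sorbitol lists (90.7 and 62.4).

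The mirrored definition, in both control lists and neither sorbitol list, was met by 8 of the 95 wild-type control gene-start loops. Again no share over all loops was counted. The strongest joined YARS2, the mitochondrial tyrosyl-tRNA synthetase, to ALG10, a glucosyltransferase of the N-glycan pathway, over 1265 kb of chromosome 12 at percentiles 99.9 and 99.9, with the genes pointing away from each other. The next were weaker. CEBPE, a transcription factor of granulocytes, met RNF212B over 65 kb in wild-type (78.2) and SLC7A8, an amino acid transporter, over 60 kb in eGFP-YAP cells (68.1). CDK3 met TRIM65 over 105 kb (65.2) in wild-type and MRPL38, a mitochondrial ribosomal protein, over 95 kb (58.5) in eGFP-YAP cells. EPG5, an autophagy factor, met PSTPIP2 over 105 kb (51.1 and 67.9), and SLC5A5, the sodium-iodide symporter, met CCDC124 over 60 kb (32.9 and 31.2).

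Of the wild-type control gene-start loops, 8 had a match in all 4 lists, and 1 of them, on chromosome 9, held gene starts at both anchors in each list. Its gene pair differed between lists. In both control lists NR6A1, an orphan nuclear receptor, met WDR38 over 80 kb (percentiles 93.5 and 93.0). In wild-type sorbitol cells the right anchor lay 2 bins further along, and NR6A1 met ARPC5L and RPL35 over 90 kb (86.4). In eGFP-YAP sorbitol cells the left anchor lay 1 bin further along, and the loop joined OLFML2A to WDR38 over 75 kb (47.8).

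Gene pairs found in 3 lists show how ranks moved. The start bin of ADSS2 and CATSPERE met DESI2, a small isopeptidase, over 200 kb at percentile 36.0 in the eGFP-YAP control list, 99.3 in the eGFP-YAP sorbitol list and 98.5 in the wild-type sorbitol list. MED28, a Mediator subunit, met the bin of DCAF16 and NCAPG, a condensin subunit, over 200 kb at 29.6, 63.3 and 93.4 in the same lists. EP300, a histone acetyltransferase, met RBX1, a subunit of cullin ubiquitin ligases, over 140 kb at 60.05, 93.0 and 90.1. IMPDH2, of guanine nucleotide synthesis, met QRICH1 over 65 kb at 22.4, 28.1 and 37.9. The bin of AURKA, a mitotic kinase, and CSTF1 met RTF2 over 75 kb at 30.3 and 20.9 in the eGFP-YAP lists and at 59.1 after sorbitol in wild-type cells. C4BPB and CR1, both regulators of complement, were joined over 410 kb in both control lists (99.7 and 99.0) and in the eGFP-YAP sorbitol list (93.1). These percentiles rank loops within lists of different lengths and are no measure of change in contact.

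The distance between joined starts was shorter in each list than that of loops without a gene start. The median span was 150 kb (115 to 175) in wild-type control, 165 kb (150 to 180) in wild-type sorbitol, 145 kb (130 to 155) in eGFP-YAP control and 165 kb (155 to 180) in eGFP-YAP sorbitol cells. Loops with no gene start had medians of 245, 235, 275 and 270 kb, and loops with a start at 1 anchor 180, 185, 195 and 195 kb. The intervals of loops with a start at 1 anchor (170 to 190 and 175 to 190 in wild-type cells) overlapped those of gene-start loops in both wild-type lists. In both eGFP-YAP lists (185 to 205 and 185 to 200) they lay above. For gene-start loops, the control and sorbitol intervals overlapped in wild-type cells and met at 155 kb in eGFP-YAP cells. With each list shortened to its 5577 highest-scoring loops the order turned, with medians of 225 and 290 kb in the control lists and 170 and 165 kb in the sorbitol lists. The shortest gene-start loops spanned 35 kb in every list, such as C20orf96 to SOX12 in wild-type control cells and NDUFV2, a subunit of respiratory complex I, to ANKRD12 in eGFP-YAP sorbitol cells. The wild-type sorbitol list had INIP to SNX30, and the eGFP-YAP control list LCE2D to LCE2A, 2 genes of the late cornified envelope cluster. The longest were H2AC4 and H3C2 to H2AC14 and H3C10 (1780 kb) in wild-type control, SMYD2 to KCTD3 (1285 kb) in wild-type sorbitol, YARS2 to ALG10 (1265 kb) in eGFP-YAP control, and PTPRU to MATN1 (1485 kb) in eGFP-YAP sorbitol cells.

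The possible pairs of gene-start bins allow the same comparison at matched distance. There were 400837 pairs of such bins on one chromosome at spans up to 2 Mb, and 0.0237%, 0.129%, 0.0581% and 0.185% of them were called in wild-type control, wild-type sorbitol, eGFP-YAP control and eGFP-YAP sorbitol cells. At 35 to 100 kb, 13.3 and 69.0 pairs per 10000 were called in wild-type control and sorbitol cells, and 38.2 and 109 in eGFP-YAP cells. At 200 to 500 kb the values were 3.09 and 23.6 in wild-type and 9.27 and 34.8 in eGFP-YAP cells. From 1 to 2 Mb they were 0.332 and 0.387 in wild-type and 0.166 and 0.332 in eGFP-YAP cells, with intervals that overlapped. The higher rate after sorbitol therefore held in each distance class up to 1000 kb and could not be seen beyond it with 3 to 7 loops per list.

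**Figure D3:**
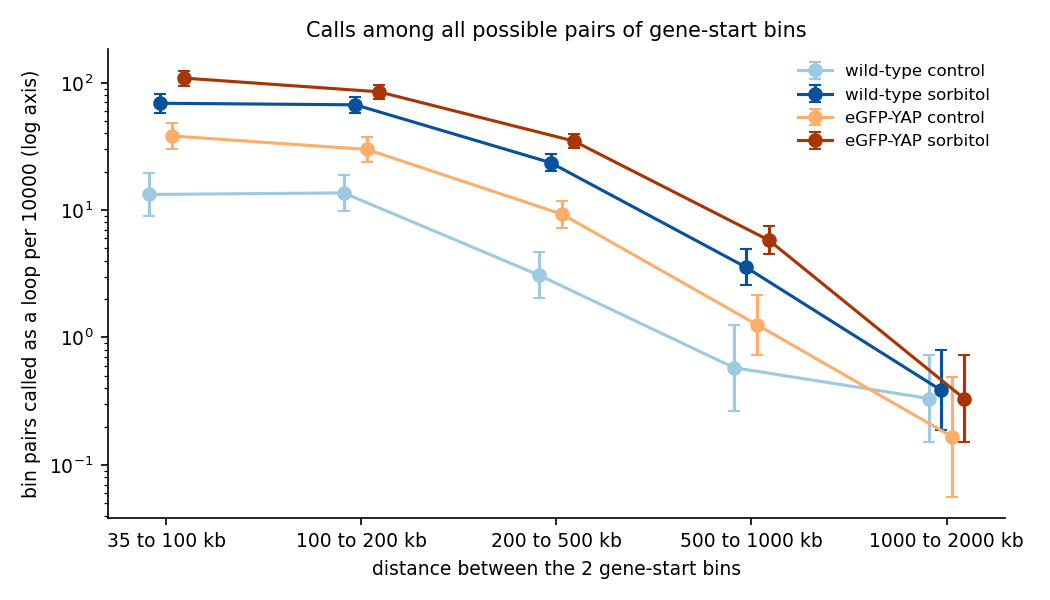
Points give how many of 10000 possible pairs of gene-start bins were called as a loop in each list, on a log axis, by the distance between the bins, with 95% Wilson intervals. The sorbitol lists lie above the control list of their line in the 4 classes up to 1000 kb, and all 4 lists overlap at 1 to 2 Mb, where they lie between 0.166 and 0.387.

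Gene-start loops mostly passed over other genes. A median of 2 further start bins lay between the anchors in all 4 lists. No other start lay between in 20.0% and 19.1% of the wild-type control and sorbitol loops and in 25.3% and 22.9% of the eGFP-YAP loops, so these joined neighbouring start bins. A single gene body reached from one anchor to the other in 2, 6, 6 and 8 loops.

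Strand was scored where each anchor held starts on a single strand. The 2 genes pointed the same way in 35 of 76 wild-type control loops (46.1%), 161 of 351 wild-type sorbitol loops (45.9%), 85 of 179 eGFP-YAP control loops (47.5%) and 265 of 488 eGFP-YAP sorbitol loops (54.3%). Among all possible pairs the share was 50.4%, which lies inside the interval of the wild-type control (35.3% to 57.2%), the wild-type sorbitol (40.7% to 51.1%) and both eGFP-YAP lists (40.3% to 54.8% and 49.9% to 58.7%). Genes pointed away from each other in 42.1%, 32.8%, 27.9% and 23.4% of loops, against 24.6% of possible pairs, and the interval lay above that value in both wild-type lists (31.6% to 53.3% and 28.1% to 37.8%). They pointed towards each other in 11.8%, 21.4%, 24.6% and 22.3%, against 25%, and the interval lay below that value only in wild-type control cells (6.36% to 21.0%). That class rests on 9 loops. The possible pairs were not matched to the loops in span, and 180883 of the 400837 lay 1 to 2 Mb apart. Whether their strand shares change with distance was not tested.

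Anchors with starts on both strands were more common than the background in 3 lists and not distinct from it in wild-type control cells. Only the strands in a bin were scored, and not whether the starts were adjacent and divergent. An anchor with starts on both strands was present in 20.0% of the wild-type control, 32.4% of the wild-type sorbitol, 23.2% of the eGFP-YAP control and 34.3% of the eGFP-YAP sorbitol loops, against 17.0% of possible pairs. Counted by bin, 9.78%, 17.2%, 13.0% and 18.1% of the anchors had starts on both strands, against 8.13% of all 17880 bins with a protein-coding start. In wild-type control cells the intervals held the background by loop (13.2% to 29.1%) and by bin (6.28% to 14.9%). The background by loop was again not matched to the loops in span. PSMB1 with TBP, LSM3 with XPC, and NOSIP with PRR12 are bins of this kind.

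Several anchors took part in more than 1 gene-start loop, most often in the eGFP-YAP sorbitol list. The share of anchor bins with 2 or more such loops was 3.26% (1.5% to 6.93%) in wild-type control, 9.68% (7.95% to 11.7%) in wild-type sorbitol, 4.27% (2.75% to 6.57%) in eGFP-YAP control and 17.4% (15.4% to 19.6%) in eGFP-YAP sorbitol cells. Linked groups of 3 or more bins numbered 6, 66, 15 and 139, and sets of 3 bins that were all joined to each other 0, 3, 0 and 16. The largest groups held 3, 6, 6 and 9 bins. The shares of bins with 2 or more loops stood in the same order as the numbers of gene-start loops, at 95, 519, 233 and 743. The share of anchors with 2 or more loops over all loops of each list was not counted.

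Both of the largest groups, of 9 bins each, were in the eGFP-YAP sorbitol list. On chromosome 11, PTDSS2, a phosphatidylserine synthase, took part in 6 loops with 8 partner genes over a group that extends across 610 kb. Its partners were the bins of BET1L with RIC8A (240 kb, percentile 93.5) and of PSMD13, a proteasome subunit, with SIRT3, a mitochondrial deacetylase (210 kb, 98.1). To the right it met RNH1, the ribonuclease inhibitor (60 kb, 25.3), PHRF1 (130 kb, 89.3), EPS8L2 (245 kb, 55.4) and PNPLA2, a triglyceride lipase (370 kb, 69.0). The other 3 lists had no gene-start loop in the group's extent. The annotated start of PTDSS2 in GENCODE lies in the bin before that of its RefSeq start.

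On chromosome 19, PRMT1, the main asymmetric arginine methyltransferase, took part in 4 loops of the eGFP-YAP sorbitol list. Among them, it met the bin of ALDH16A1 and PIH1D1 over 225 kb (53.4), the ribosomal protein gene RPL13A over 190 kb (18.0), and the bin of NOSIP and PRR12 over 85 kb (48.6). None of these 3 loops was in another list at the same bins, and the one to NOSIP and PRR12 had a match within 10 kb in wild-type sorbitol cells. In the eGFP-YAP control list PRMT1 met FCGRT, the neonatal Fc receptor, over 170 kb (55.7). The group of 9 bins and 11 loops also held the Hippo pathway factor TEAD2.

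**Figure D4:**
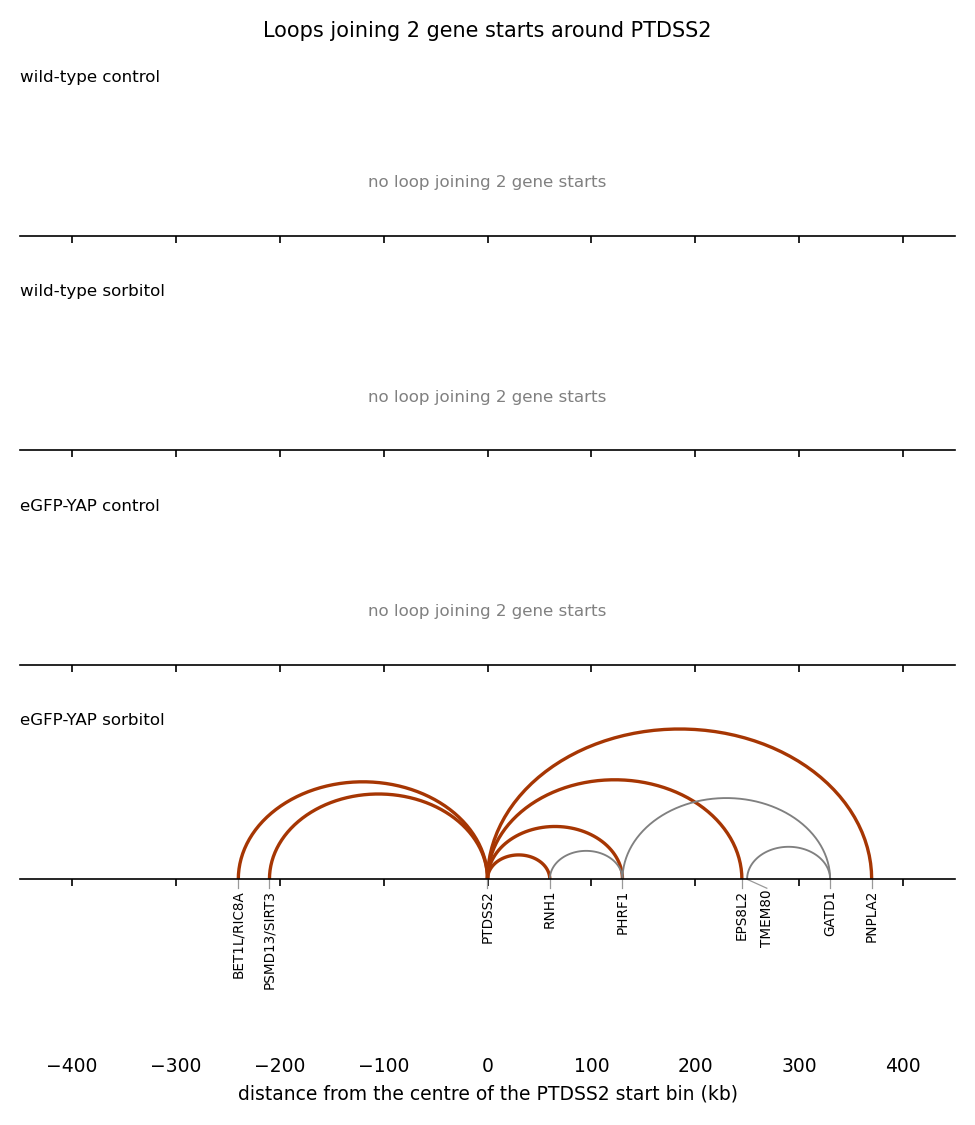
Arcs join the 2 start bins of each gene-start loop around PTDSS2 in the 4 lists, against the distance in kb from the bin of PTDSS2, with arc height proportional to span. Coloured arcs end at PTDSS2 and grey arcs do not. PTDSS2 has 6 loops in the eGFP-YAP sorbitol list and none in the others.

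Other genes with many partner genes differed between lists. In eGFP-YAP sorbitol cells CDCA4 met 6 genes in 4 loops, among them PACS2 and CLBA1, and the unnamed gene ENSG00000262526 met 6 genes, among them POLR2A, the largest subunit of RNA polymerase II. In wild-type sorbitol cells ACD, a shelterin component, and PARD6A, a polarity factor, share a bin that met 5 genes, among them THAP11 and the proteasome gene PSMB10. THAP11 itself met 5 genes, among them CTCF, over 280 kb (percentile 71.9). C6orf47 and DIXDC1 also had 5 partners each. FGFR4 and TSPAN17 belonged to a chromosome 5 group in both sorbitol lists, of 6 bins over 700 kb in wild-type and 8 bins over 1025 kb in eGFP-YAP cells, which shared FAF2, RNF44 and GPRIN1. The genes with the most partner genes in the control lists lay in the histone cluster. H2AC17 and ENSG00000282988 had 4 in wild-type and H2AC12 and H2AC4 had 4 in eGFP-YAP cells. Partner genes count every gene that starts in a partner bin, and the 4 of H2AC17 came from 1 loop. By loops, the bins of CAPZA1 and POP5 equalled that of ENSG00000282988 in wild-type control cells, with 2 each. ATP6V0E1 equalled H2AC4 in eGFP-YAP control cells, with 3 each.

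Gene lists were counted by how many members started at a gene-start loop, to be read against 1.08%, 5.88%, 2.70% and 7.66% of all protein-coding genes in wild-type control, wild-type sorbitol, eGFP-YAP control and eGFP-YAP sorbitol cells. No test was made of any list. Replication-dependent histone genes were the one list with more members in the wild-type control than in the wild-type sorbitol list, at 16 and 6 of 70, leaving aside lists with a single such member or the 2 olfactory receptors. They were 11 and 13 of 70 in eGFP-YAP control and sorbitol cells. In wild-type control cells, 6 loops joined histone genes at both anchors over 70 to 1780 kb, with a median of 1365 kb and a median percentile of 95.8. In wild-type sorbitol cells 2 such loops spanned 115 and 675 kb. In eGFP-YAP cells there were 5 (median 170 kb) before and 3 (median 90 kb) after sorbitol, and the loop from H2AC12 to H2AC17 over 745 kb was in both, at percentiles 89.4 and 96.2. Histone genes are near-identical copies, and how reads that fit several copies were treated is not given in the sources used here.

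Genes of RNA polymerase II and Mediator were at gene-start loops in 0 and 10 of 42 cases in wild-type and 2 and 7 in eGFP-YAP cells. MED20 met FRS3 and TOMM6 over 135 kb in the wild-type sorbitol (86.8) and eGFP-YAP control lists (61.7) and this loop had a match within 10 kb in each of the other 2 lists. After sorbitol in eGFP-YAP cells the MED20 bin also met TFEB, a regulator of lysosomal genes, over 185 kb (11.6) and the bin of CCND3, a cyclin, and TAF8 over 130 kb (59.4). MED19 met ZDHHC5 over 45 kb in both sorbitol lists (13.2 and 35.8). Proteasome genes numbered 0 and 8 of 48 in wild-type and 2 and 6 in eGFP-YAP cells. PSMB3 met LASP1 over 115 kb before and after sorbitol in eGFP-YAP cells (23.3 and 56.2). Splicing factors numbered 4 and 9 of 67 in wild-type and 2 and 7 in eGFP-YAP cells, and HNRNPU met DESI2 over 210 kb in both sorbitol lists (81.5 and 87.1).

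Cytosolic ribosomal protein genes numbered 2 and 9 of 80 in wild-type and 2 and 19 in eGFP-YAP cells. RPL41 met NABP2 and RNF41 over 105 kb in both eGFP-YAP lists (47.4 and 42.4), with a match within 10 kb in wild-type sorbitol cells, and it met BLOC1S1 and ITGA7 over 400 kb in wild-type sorbitol cells (69.6). Mitochondrial ribosomal protein genes numbered 0 and 10 of 78 in wild-type and 6 and 9 in eGFP-YAP cells, with MRPL17 joined to ILK, a kinase of integrin adhesions, over 80 kb in both eGFP-YAP lists (24.8 and 23.7). None of the ribosomal, proteasome or polymerase loops had a member of the same list at both anchors. Zinc finger genes numbered 7 and 18 of 508 in wild-type and 10 and 32 in eGFP-YAP cells, shares near or below those of all genes after sorbitol, and ZNF140 met ZNF268 over 100 kb in both sorbitol lists (44.7 and 75.9).

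**Figure D5:**
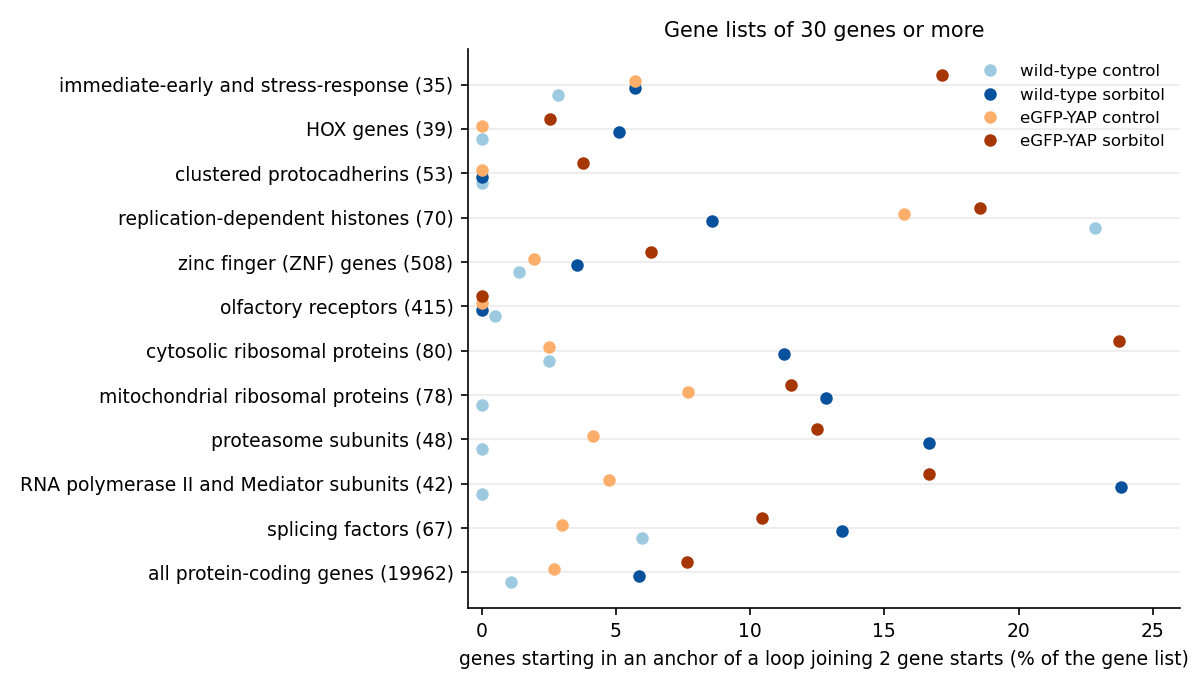
Points give the percentage of each gene list that starts at an anchor of a gene-start loop, by loop list, with the number of genes of each list in brackets. Across all protein-coding genes the values are 1.08%, 5.88%, 2.70% and 7.66%. Histone genes stand at 22.9% in wild-type control and 8.57% in wild-type sorbitol cells, and cytosolic ribosomal protein genes at 23.8% in eGFP-YAP sorbitol cells.

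Genes tied to the treatment or to YAP gave counts from 0 to 3 per list. None of 13 genes of osmotic stress and cell volume, such as NFAT5 and SLC5A3, started at a gene-start loop in any list. Of 22 YAP and TEAD target genes, FJX1 met TRIM44 over 45 kb in wild-type sorbitol cells (16.2), and CCN1 met ZNHIT6 over 125 kb (85.7) and FOXF2 met EXOC2 over 695 kb (26) in eGFP-YAP control cells. None started at a gene-start loop in eGFP-YAP sorbitol cells, although the loop of FOXF2 with EXOC2 had a match there within 10 kb. As shares these were 4.55% in wild-type sorbitol and 9.09% in eGFP-YAP control cells. Among 18 Hippo pathway and TEAD genes, 3 started at gene-start loops in wild-type sorbitol cells (16.7%) and 1 in each eGFP-YAP list (5.56%). TEAD2 met SLC17A7 over 80 kb in both sorbitol lists (78.3 and 90.9). STK4, a Hippo kinase, met YWHAB, a 14-3-3 protein, over 80 kb in wild-type sorbitol cells (98.6), TEAD4 met TSPAN9 over 120 kb in the same list (36.7, with a match within 10 kb in eGFP-YAP sorbitol cells), and LATS1 met GINM1 over 150 kb in eGFP-YAP control cells (9.45).

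Immediate-early and stress-response genes numbered 1 and 2 of 35 in wild-type and 2 and 6 in eGFP-YAP cells. FOSL2 met RBKS over 500 kb in both eGFP-YAP lists (11.7 and 35.3), DUSP1, a phosphatase of MAP kinases, met CREBRF over 285 kb after sorbitol (59.3), and BTG2 met CYB5R1 over 340 kb after sorbitol (63.8). HSPA1B, a heat shock protein gene with a near-identical copy beside it, met C6orf47 over 165 kb before (10.8) and DDX39B over 285 kb after sorbitol (12.6).

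Genes of loop architecture were at gene-start loops in 0 and 4 of 18 cases in wild-type and 0 and 3 in eGFP-YAP cells. STAG1, a cohesin subunit, met NCK1 over 110 kb in both sorbitol lists (41.0 and 44.7). ESCO1, which acetylates cohesin, met ROCK1 over 490 kb in wild-type sorbitol cells (40.4), and MAZ met the bin of MYL11 and TBC1D10B over 565 kb in eGFP-YAP sorbitol cells (69.6). Among other developmental genes, HOXA10 met the bin of CBX3 and HNRNPA2B1 over 980 kb in wild-type sorbitol cells at percentile 99.7, and HOXA5 over 40 kb in the same list (77.6). In eGFP-YAP sorbitol cells HOXC4 met the bin of CBX5 and HNRNPA1 over 265 kb (41.2). PCDHB13 met PCDHGC5 over 275 kb in the same list (10.6), and the only pair of olfactory receptors was OR2J3 with OR2H2 over 480 kb in wild-type control cells (58.1).

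The anchors were GC-rich and CpG-rich in all lists. Median GC was 51.6%, 51.7%, 50.6% and 51.1% in wild-type control, wild-type sorbitol, eGFP-YAP control and eGFP-YAP sorbitol cells, against 48.7% over all bins with a protein-coding start. The median number of CpG sites per kb was 30.3 (28.0 to 32.4) and 34.3 (33.4 to 35.6) in wild-type and 30.6 (29.4 to 32.4) and 35.5 (34.4 to 36.0) in eGFP-YAP cells, against 26 over all start bins. The sorbitol anchors were thus denser in CpG than the control anchors of the same line, with intervals that did not overlap. This was not particular to gene-start loops. In loops with 1 gene start, the anchor with the start had 29 and 34 CpG sites per kb in wild-type and 29.6 and 33.8 in eGFP-YAP cells. Its median GC was 50.1%, 51.2%, 50.4% and 51.0% in the 4 lists. The CTCF consensus, with at most 1 mismatch, was found in 27.2% and 22.0% of wild-type and 30.1% and 19.5% of eGFP-YAP anchors, against 17.2% of all start bins. The intervals of the 2 conditions overlapped in wild-type cells (21.3% to 34.0% and 19.5% to 24.8%) and not in eGFP-YAP cells (26% to 34.5% and 17.4% to 21.8%). In loops with 1 gene start, 29.9% and 21.6% of the wild-type anchors with the start held the consensus. The eGFP-YAP values were 35.3% and 25.6%. Where both anchors held a motif of one orientation, the motifs pointed towards each other in 5 of 9, 7 of 22, 7 of 19 and 11 of 25 gene-start loops. For loops with no gene start the shares were 68.8%, 58.8%, 76.6% and 75.2%. The 4 counts are small, and the interval reached from 26.7% to 81.1% in wild-type control cells and from 26.7% to 62.9% in eGFP-YAP sorbitol cells.

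Promoters were read from RefSeq for 177 of 216, 904 of 1174, 407 of 538 and 1204 of 1530 genes, and for 15315 of all 19962, as 300 bases from 250 before the start. The RefSeq start lay within 500 bases of the GENCODE start for 77.4%, 81.6%, 80.6% and 82.3% of these, and for 80.5% over all genes. The remaining windows may not be at the start found in the anchor. A promoter was called CpG-rich with over 50% GC and a ratio of observed to expected CpG above 0.6. Such promoters made up 70.1% (62.9% to 76.3%), 86.1% (83.7% to 88.2%), 78.6% (74.4% to 82.3%) and 86.9% (84.9% to 88.7%) of the 4 sets, against 64.0% of all genes. Both sorbitol sets lay above the control set of their line, with intervals that did not overlap.

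Motifs were searched on both strands, and matches of different motifs may overlap at their edges. Because CpG-rich promoters hold more of some motifs, the shares here are among CpG-rich promoters unless stated otherwise. The YY1 site, as in the CCDC174 promoter above, was in 11.3%, 7.20%, 4.06% and 9.27% of the 4 sets, against 5.34% of all CpG-rich promoters. The interval lay above that value in wild-type control (6.85% to 18.1%), wild-type sorbitol (5.58% to 9.23%) and eGFP-YAP sorbitol cells (7.66% to 11.2%), and held it in eGFP-YAP control cells (2.39% to 6.83%). The ETS site was in 12.9%, 24.6%, 21.6% and 23.6%, against 20.0%, with intervals above that value in both sorbitol sets (21.7% to 27.7% and 21.1% to 26.3%), just below it in wild-type control cells (8.10% to 19.9%) and around it in eGFP-YAP control cells (17.4% to 26.4%). The GC box was in 84.7%, 82%, 81.9% and 83.6%, against 79.6%. The TATA box (TATAAA) was in 2.42%, 3.08%, 2.81% and 3.44%, against 4.00%, and among promoters of any CpG content in 10.2%, 4.31%, 6.39% and 4.73%, against 9.64%. The AP-1 site (TGANTCA) was in 0 of 124, 2.31%, 2.81% and 2.96%, against 2.99%, and among promoters of any CpG content in 2.26%, 3.21%, 3.93% and 4.07%, against 5.75%. The order of the wild-type TATA shares thus turned with the set of promoters. Among CpG-rich promoters the control share rests on 3 of 124, and its interval (0.826% to 6.87%) holds that of sorbitol (2.08% to 4.55%). Histone genes made up 16 of the 216 genes of the wild-type control set.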

How the data were processed

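In situ Hi-C loops of 14 of the 32 samples of the series were used, as 4 lists: wild-type control and sorbitol (3 samples each) and eGFP-YAP control and sorbitol (4 each). The lists name no replicate, and which samples were joined is not stated. The other 18 samples (further time points, HCT116 and other lines) were not analysed here. The authors' deposited lists give 2 bins of 5 kb per loop, the caller's score and its enrichment probability (a fraction, at least 0.90 in each list), per the file headers, and neither was recomputed. The build is hg38 per the submitters' processing notes. The caller's version and settings, the aligner and the matrix normalisation are not given in the sources used here. Labels name the cells HEK293, and the growth protocol HEK293T. Differently named sources stand in the deposited lists' names for the 2 lines, so line and source cannot be told apart.

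Gene starts came from GENCODE release 44 (19970 protein-coding records, 19962 symbols). Python 3.11.15 with pandas 2.3.3, scipy 1.17.1 and networkx 3.6.1 was used. Intervals are 95% Wilson for shares, exact for ratios and from order statistics for medians. Loops matched when both anchors lay within 10 kb. Assignment, strands, matching and motif search were tested on simulated data. Members, gene lists and alternatives were chosen with earlier results of these data known. Genes named were, by rule, those of the loops matched between lines with the highest mean score percentile (1 per chromosome), the genes with the most partners, the longest and shortest loops, and up to 4 members of each gene list. Gene pairs found in 3 lists, further partners of those genes and the chromosome 5 group were chosen after their values were seen. Loops on chromosome 8 were counted and not named. Promoters are RefSeq's in GRCh38.p14, and windows with exon bases were not printed. Some of the genes and loops that the rule names are not reported here.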

Additional observations from a re-analysis of the deposited data

Results flagged for a closer look

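Strand was the feature in which the 2 lines moved in opposite directions between control and sorbitol, among 11 features of the gene-start loops compared in this way. The share of loops whose genes pointed towards each other was higher after sorbitol by 9.53 percentage points in wild-type cells (11.8% to 21.4%) and changed by -2.25 points in eGFP-YAP cells (24.6% to 22.3%). The share on the same strand changed by -0.184 points in wild-type cells (46.1% to 45.9%) and by 6.82 points in eGFP-YAP cells (47.5% to 54.3%). The wild-type change in that share is small, and its sign turned with widened anchors (1.17 points), in the upper 50% by score (8.65), in lists of equal length (2.70) and with readthrough genes left out (0.888), where both lines moved the same way. No test was made of this contrast between lines, because each condition of each line is 1 list, and the intervals of control and sorbitol overlapped for each of these shares.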

How the results depend on the processing

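No paired analysis was possible because each list joins the samples of a condition, and leaving out a replicate was not possible for the same reason. Of 131 values under 9 kinds of alternative, and with the anchors moved, 83 stayed within the main interval (for shared gene pairs, within 1.5 times), including all 34 with neighbouring loops merged or readthrough genes left out. Values that moved are given in the order wild-type control, wild-type sorbitol, eGFP-YAP control, eGFP-YAP sorbitol. The share of loops joining 2 gene starts was 3.56%, 27.1%, 5.62% and 31.2% with anchors widened by 5 kb on each side, 2.30%, 13.3%, 3.44% and 18.7% with genes of all types, 2.77%, 19.3%, 4.10% and 24.6% with any transcript start, and 0.290%, 0.610%, 0.337% and 0.502% with anchors moved by 100 kb. In the upper 50% by score it was 11.3% in wild-type sorbitol and 0.854% in eGFP-YAP control cells, and in lists of equal length 0.592% in the latter. It was higher after sorbitol in both lines under each alternative. The share called again in the other condition was 4.21%, 0.771%, 10.3% and 3.23% at identical bins, 34.7%, 19.7%, 36.1% and 27.9% within 25 kb, and 33.3%, 3.35%, 39.4% and 3.23% in lists of equal length. With genes of all types it was 12.6% in wild-type sorbitol and 20.2% in eGFP-YAP control cells, with any transcript start 19.7% in the latter, and in the upper 50% 5.41% and 10.0% in the sorbitol lists. It was lower in the sorbitol list of each line throughout. The median span was 160 kb (widened anchors) and 165 kb (all gene types) in eGFP-YAP control cells, 200, 180 and 225 kb in the last 3 lists in the upper 50%, and 225 and 290 kb in the control lists at equal length, where they exceeded the sorbitol lists. The same-strand share in eGFP-YAP sorbitol cells was 48.0% with genes of all types, below its control value of 51.3%. Gene pairs in both sorbitol lists numbered 1000 with widened anchors, 250 with all gene types, 376 with any transcript start and 82 in the upper 50%. The cause of these changes was not tested beyond what each alternative adds or removes. Low counts limit the wild-type control list most, with 95 gene-start loops.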

Other observations

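Sorbitol-only gene-start loops made use of anchors already present in the control list of the line to differing extents. In wild-type cells 82 of 473 (17.3%) had both anchors within 10 kb of control anchors, 214 (45.2%) had 1 and 177 (37.4%) had none. In eGFP-YAP cells the counts were 148 (23.8%), 295 (47.4%) and 179 (28.8%) of 622. Loops with no gene start that were called only after sorbitol had no control anchor in 25.3% of wild-type and 22.1% of eGFP-YAP cases. For those with 1 gene start the shares were 36.0% (33.4% to 38.6%) and 24.2% (21.8% to 26.7%). These intervals overlapped those of gene-start loops (33.2% to 41.9% and 25.4% to 32.5%), so the share was not particular to loops joining 2 gene starts.

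By chromosome, gene-start loops made up between 2.19% (chromosome 13, on 3 loops) and 20.7% (chromosome 8, on 24 loops) of the eGFP-YAP sorbitol loops, and between 2.14% (chromosome 13, on 5 loops) and 16% (chromosome 21, on 12 loops) of the wild-type sorbitol loops. The median length of the genes at gene-start loops was 16.5 kb in wild-type control, 23 kb in wild-type sorbitol, 22.1 kb in eGFP-YAP control and 26.8 kb in eGFP-YAP sorbitol cells, against 27.5 kb over all protein-coding genes.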
